A study of Mus musculus with 9 samples.

Results

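Potassium channel genes were examined in mouse lung organoids. The genes were chosen by symbol: every row of both deposited comparison tables whose symbol was Kcn followed by letters and a number, without antisense, overlapping-transcript or pseudogene suffixes. This rule found 93 of the 57010 gene identifiers, the same 93 in both tables, and used no measured value. It left out the non-coding rows Kcnmb4os1, Kcnmb4os2, Kcnd3os and Kcnq1ot1 and the regulator gene Kcnrg. The 9 libraries were 3 labelled Normal, from normal lung, 3 labelled SCLC, for small cell lung cancer, and 3 labelled GSK, organoids of SCLC that received GSK and carry SCLC as their tissue label. The sources used here do not give strain, genotype, age, or the identity, dose and time of GSK. The authors' deposited tables compare SCLC with Normal and GSK with a control, 3 libraries against 3, and hold no value for a single library. Whether groups overlapped between libraries could therefore not be seen, and the replicate spread enters only through the authors' standard errors. Nothing states that replicates were separate cultures or animals, so the p-values measure the spread between these libraries, which may be technical.

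Potassium channels let potassium leave or enter the cell along its gradient and so set the resting potential and end the action potential. Voltage-gated (Kv) alpha subunits open on depolarization, inward rectifiers (Kir) and tandem-pore channels hold the membrane near rest, and calcium- or sodium-activated channels couple excitability to ion entry. Silent Kv subunits conduct only in mixed channels, and accessory subunits change the gating or the surface level of the pore-forming ones. In lung epithelium, potassium channels at the basolateral side maintain the driving force for chloride and fluid transport. Small cell lung cancer is a neuroendocrine tumour whose cells can fire action potentials. The 93 genes comprised 30 conducting voltage-gated subunits (Kcna, Kcnb, Kcnc, Kcnd, Kcnh and Kcnq) and 10 silent Kv subunits (Kcnf, Kcng, Kcns and Kcnv). They also held 15 inward rectifiers (Kcnj), 14 tandem-pore channels (Kcnk) and 16 accessory subunits (Kcne, Kcnab, Kcnip and Kcnmb). The other 8 were classed as calcium- or sodium-activated channels (Kcnn, Kcnma, Kcnt and Kcnu). Classes were set by symbol alone, and Kcnu1 is counted in this last class without being known as activated by either ion.

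Levels below are group means in normalized counts, implied by the authors' mean over 6 libraries and their fold change, and fold changes are log2 values ± the standard error the authors gave. A gene was called higher or lower where the authors' adjusted p was under 0.05. Some group means lay under 1, that is, under 3 normalized counts over their 3 libraries. The fold is then a lower bound computed against 1 and written "at least". This bound takes the other mean without its error and covers counting error only. The interval from the authors' standard error therefore includes smaller folds for every channel gene written "at least" below, except Kcns3. For Kcnh4 in SCLC against Normal it runs from 6.47 to 11.6 in log2 units, and the bound is 8.73. Apart from Kcns3, these bounds are not minimum folds when this error is counted. The control of the second table matched the SCLC group of the first: for 13634 genes whose mean was 50 or more, the log2 ratio of the implied means had median 0.109 with SD 0.0084. The tables were therefore taken to share the SCLC libraries, and a gene's values in both are given side by side without a test across them. Implied sums were 44.7 and 42.0 (in units of 1e+06 normalized counts per library) for Normal and SCLC in the first table, and 45.3 and 31.9 for control and GSK in the second. All 8 neuroendocrine markers checked (Insm1, Chga and others) were higher in SCLC, and all 6 alveolar type II, 4 alveolar type I and 4 club cell markers were lower, per the authors' deposited table. Fibroblast, mural, endothelial and immune markers had summed means of 9106, 1114, 125 and 1863 in Normal and of 24.0, 434, 40.5 and 76.0 in SCLC. In SCLC, Des alone held 389 of the mural sum and Pecam1 36.2 of the endothelial sum, and neither passed against Normal. In such bulk libraries, fewer cells of a type and less RNA per cell cannot be told apart.

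Comparing SCLC with Normal asked how the tumour organoids differed from normal lung organoids in their channels. Of the 93 genes, 79 had an adjusted p per the authors' deposited table, and 55 of these passed, 40 higher and 15 lower in SCLC. Over all 24719 genes tested, 50.4% passed, 25.3% higher and 25.1% lower. The median log2 fold change of the 79 was 2.39, or 2.30 with bounds in place of fitted values, against 0.10 over all genes tested. A further 10 channel genes had a fold change but no adjusted p (means of 0.126 to 1.20), and Kcna10, Kcna5, Kcne1l and Kcng4 were listed at 0. The smallest rise among the 40 was 3.47-fold, and the 15 that fell did so by 3.18-fold to 12570-fold. Under the alternatives, 25.6% of all genes passed against a log2 change of 1, 35.7% with no filter on low means, 64.1% among means of at least 10, 50.7% with equal group sums and 50.6% when centred. Against a log2 change of 1, 44 of the 55 channel genes passed, and the 11 that did not were Kcna7, Kcnc4, Kcnd3, Kcng2, Kcnh5, Kcnh7, Kcnip2, Kcnip4, Kcnj13, Kcnj9 and Kcnn3. Markers of other cell types moved with this contrast as given above, and their part in the falls was not tested.

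**Figure D1:**
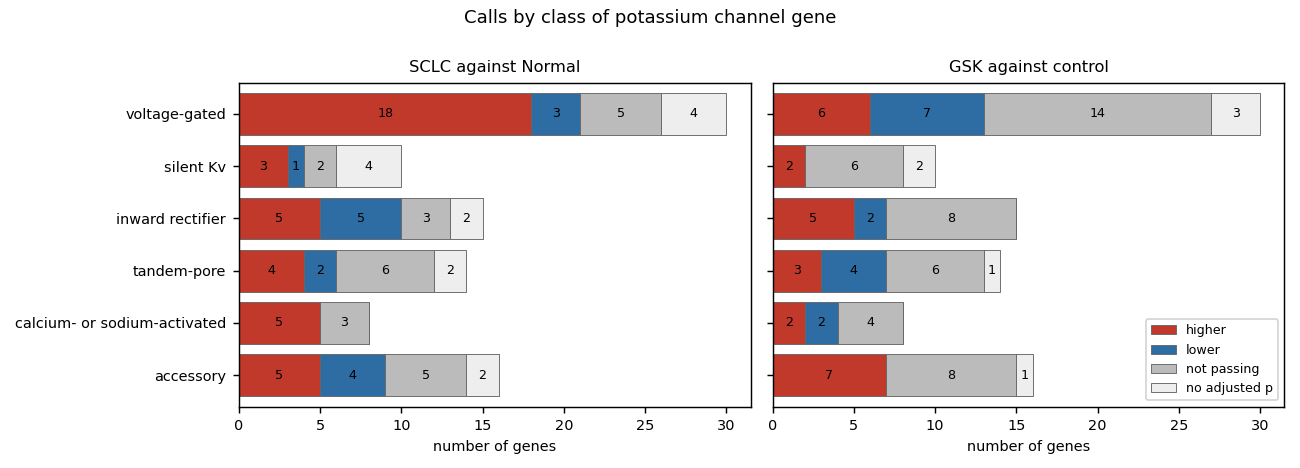
Number of genes in each class (horizontal axis) that were higher, lower or not passing at an adjusted p of 0.05, or had no adjusted p, in SCLC against Normal (left) and in GSK against control (right). Of 26 voltage-gated genes tested, 18 were higher in SCLC, while 6 were higher and 7 lower among 27 tested with GSK.

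Conducting voltage-gated genes moved mostly upward in SCLC: of 26 tested, 18 were higher, 3 lower and 5 did not pass, with a median log2 fold change of 3.75. With the silent Kcnf and Kcng genes added, the Kcna to Kcnh and Kcnq group counted 21 higher and 3 lower of 30 tested per the authors' deposited table. Kcnq channels carry the M-current, which restrains repetitive firing. Kcnq5 rose from 2.23 to 1033, a log2 fold change of 8.85 ± 0.90 (adjusted p = 1.1e-21) per the authors' deposited table. Kcnq3, a neuronal M-current gene, stayed near the floor with implied means of 0.346 and 1.84 and had no adjusted p per the authors' deposited table. Kcnq1, which forms epithelial and cardiac channels with Kcne subunits, fell from 930.1 to 29.5 (-4.98 ± 0.41, adjusted p = 8.76e-33), per the authors' deposited table.

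Kcnc1, a rapidly gating channel of fast-spiking neurons, had a mean of 0.411 in Normal and 4725 in SCLC and was at least 4725-fold higher (adjusted p = 3.42e-27) per the authors' deposited table. Of the Kcnh genes, which include the ERG channels, 7 of 8 were higher and Kcnh8 did not pass (0.364 and 2.91). Kcnh4 was at least 425-fold higher, from 0.800 to 425 (adjusted p = 4.79e-11), per the authors' deposited table. Kcnh2, the ERG channel of heart and endocrine cells, rose from 209 to 2114 (3.34 ± 0.45, adjusted p = 1.13e-12) per the authors' deposited table. Kcnh6, another ERG gene, went from 2.98 to 501 (7.39 ± 0.82, adjusted p = 3.13e-18) per the authors' deposited table. Kcna7, a Kv gene described in muscle, fell from 109 to 32.8 (-1.73 ± 0.51, adjusted p = 0.002) per the authors' deposited table. Kcna3, the lymphocyte Kv channel, had 10.5 and 12.4 and did not pass (0.24 ± 1.14, 95% interval -1.99 to 2.47) per the authors' deposited table.

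Promoter windows were looked up for letters of elements bound by factors of the neuronal programme. RefSeq windows (GRCm38.p6), from 250 bases before to 50 after each gene start, were found for 68 of the 93 genes, 93 windows in all. The RE1 element is bound by REST, which represses neuronal genes outside neurons. Its left arm, searched as TTCAGCACC on both strands, was found in 1 of these 68 genes, Kcnh6, and in 0.433% of all 27025 genes with a window. The right arm, GGACAGCGC, was found in Kcnj4 alone of the 68 and in 0.477% of all genes. Both genes were higher in SCLC, and each arm was found in 1 of the 27 genes that rose and had a window. Rest itself had means of 2720.1 in Normal and 118 in SCLC (-4.52 ± 0.77, adjusted p = 2.26e-08) per the authors' deposited table. With GSK, Rest went from 126 to 764 (2.60 ± 0.85, adjusted p = 0.00795), where Kcnh6 did not pass and Kcnj4 fell, per the authors' deposited table. A match describes letters in a window and is not a measured site, and any link between Rest and these genes was not tested. The stretches that hold the RE1 arms are shown 5′ to 3′ on the strand of the gene with the matched letters in capitals, for Kcnh6 at chr11:106007902-106008030 (plus strand) and for Kcnj4 at chr15:79505299-79505427 (minus strand), both upstream of the gene start and in build GRCm38.p6.
Kcnh6: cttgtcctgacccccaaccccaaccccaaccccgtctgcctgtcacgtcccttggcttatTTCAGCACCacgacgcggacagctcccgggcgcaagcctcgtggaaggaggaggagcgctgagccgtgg
Kcnj4: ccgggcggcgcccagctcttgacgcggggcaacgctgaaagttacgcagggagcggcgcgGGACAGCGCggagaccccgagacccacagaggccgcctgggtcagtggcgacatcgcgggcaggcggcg

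**Figure D2:**
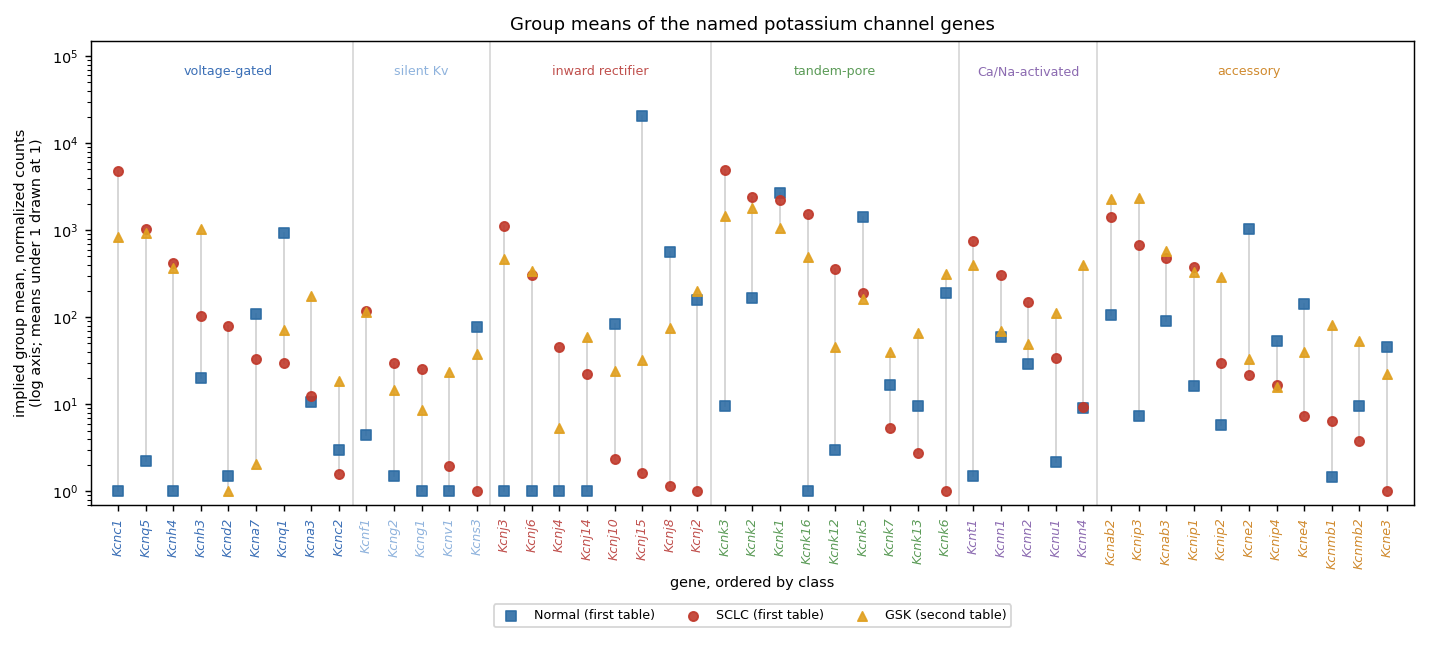
Implied group means in normalized counts (vertical, log axis, means under 1 drawn at 1) of 47 genes named by rank, ordered by class, in Normal (squares) and SCLC (circles) from the first table and in GSK (triangles) from the second. Kcnc1 stands at 4725 in SCLC and under 1 in Normal, and Kcnj15 does the reverse at 20432 in Normal and 1.63 in SCLC.

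Of 6 silent Kv subunits tested, 3 were higher and 1 lower in SCLC per the authors' deposited table. Kcnf1, which joins Kcnb subunits, rose from 4.43 to 118 (4.74 ± 0.97, adjusted p = 3.92e-06) per the authors' deposited table. Kcng2 rose from 1.49 to 29.7, and Kcng1 was at least 25.4-fold higher, per the authors' deposited table. The fitted log2 fold change of Kcng1 was 5.98 ± 1.89, and its interval of 2.27 to 9.68 includes rises smaller than 25.4-fold. Kcns3, a silent subunit described in airway and vascular muscle, went from 77.8 to 0.0812, at least 77.8-fold lower (adjusted p = 2.03e-09), per the authors' deposited table.

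Inward rectifiers were divided between the groups: of 13 tested, 5 were higher, 5 lower and 3 did not pass. The 5 that rose all had implied means under 1 in Normal. Kcnj3 and Kcnj6 encode GIRK channels, which open on release of G protein beta-gamma subunits and slow firing. Kcnj3, 31.1% of whose exon bases overlap a non-coding gene on the other strand, had a mean of 0.411 in Normal and 1107 in SCLC, at least 1107-fold higher (adjusted p = 3.96e-19), per the authors' deposited table. Kcnj6 went from 0.411 to 305, at least 305-fold higher (adjusted p = 7.69e-13), per the authors' deposited table. The other GIRK genes were low: Kcnj9 reached 15.6 in SCLC (at least 15.6-fold higher) and Kcnj5 had 1.45 with no adjusted p per the authors' deposited table. The fitted log2 fold change of Kcnj9 was 4.30 ± 1.65, and its interval of 1.06 to 7.53 includes rises smaller than 15.6-fold. Kcnj4, a strong rectifier of neurons, reached 45.2 in SCLC (at least 45.2-fold, adjusted p = 9.02e-06) per the authors' deposited table. Kcnj14 reached 22.2 in SCLC (at least 22.2-fold) per the authors' deposited table.

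Kcnj15, an epithelial rectifier, was the channel gene with the largest fold among those that fell, counting bounds for 4 of the 15. Its mean was 20432 in Normal and 1.63 in SCLC, a log2 fold change of -13.62 ± 0.52 (adjusted p = 2.76e-150) per the authors' deposited table. Kcnj8, the pore of ATP-sensitive channels in smooth muscle and pericytes, fell from 561 to 1.17 (-8.91 ± 1.57, adjusted p = 6.99e-08) per the authors' deposited table. Its sulfonylurea receptor partner Abcc9 fell from 151 to 4.80 (-4.98 ± 0.70) per the authors' deposited table, and of 7 mural and smooth muscle markers 4 fell. Kcnj2, a strong rectifier that sets the resting potential in muscle and other cells, went from 158 to 0.851, at least 158-fold lower (adjusted p = 6.57e-22), per the authors' deposited table. Kcnj10, a glial and epithelial rectifier, fell from 83.1 to 2.34 (-5.15 ± 0.79) per the authors' deposited table. Kcnj13 fell from 60.4 to 9.39 (-2.68 ± 0.79) per the authors' deposited table, but 49.1% of its annotated exon bases overlap Gigyf2 on the other strand, a gene with a mean of 3359, and whether reads were counted by strand is not given, so Kcnj13 is uncertain. Kcnj11, the ATP-sensitive pore of endocrine cells, had 11.2 and 17.7 and did not pass (0.66 ± 0.99, 95% interval -1.29 to 2.61) per the authors' deposited table. The upstream windows of Kcnj3 and Kcnj2, inward rectifiers that moved in opposite directions, both hold CAGCTG, the E-box letters bound by basic helix-loop-helix factors. They are shown with these letters in capitals, 5′ to 3′ on the plus strand of GRCm38.p6, for Kcnj3 at chr2:55435845-55435969 and for Kcnj2 at chr11:111065914-111066023.
Kcnj3: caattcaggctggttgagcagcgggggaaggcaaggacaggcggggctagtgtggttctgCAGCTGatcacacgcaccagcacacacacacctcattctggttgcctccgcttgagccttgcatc
Kcnj2: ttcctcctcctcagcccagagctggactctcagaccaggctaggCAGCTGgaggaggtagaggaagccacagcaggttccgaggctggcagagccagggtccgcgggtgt
CAGCTG was present in windows of 7 of the 27 genes that rose and had a window, in 3 of 12 that fell, and in 18.3% of all genes with a window.

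**Figure D3:**
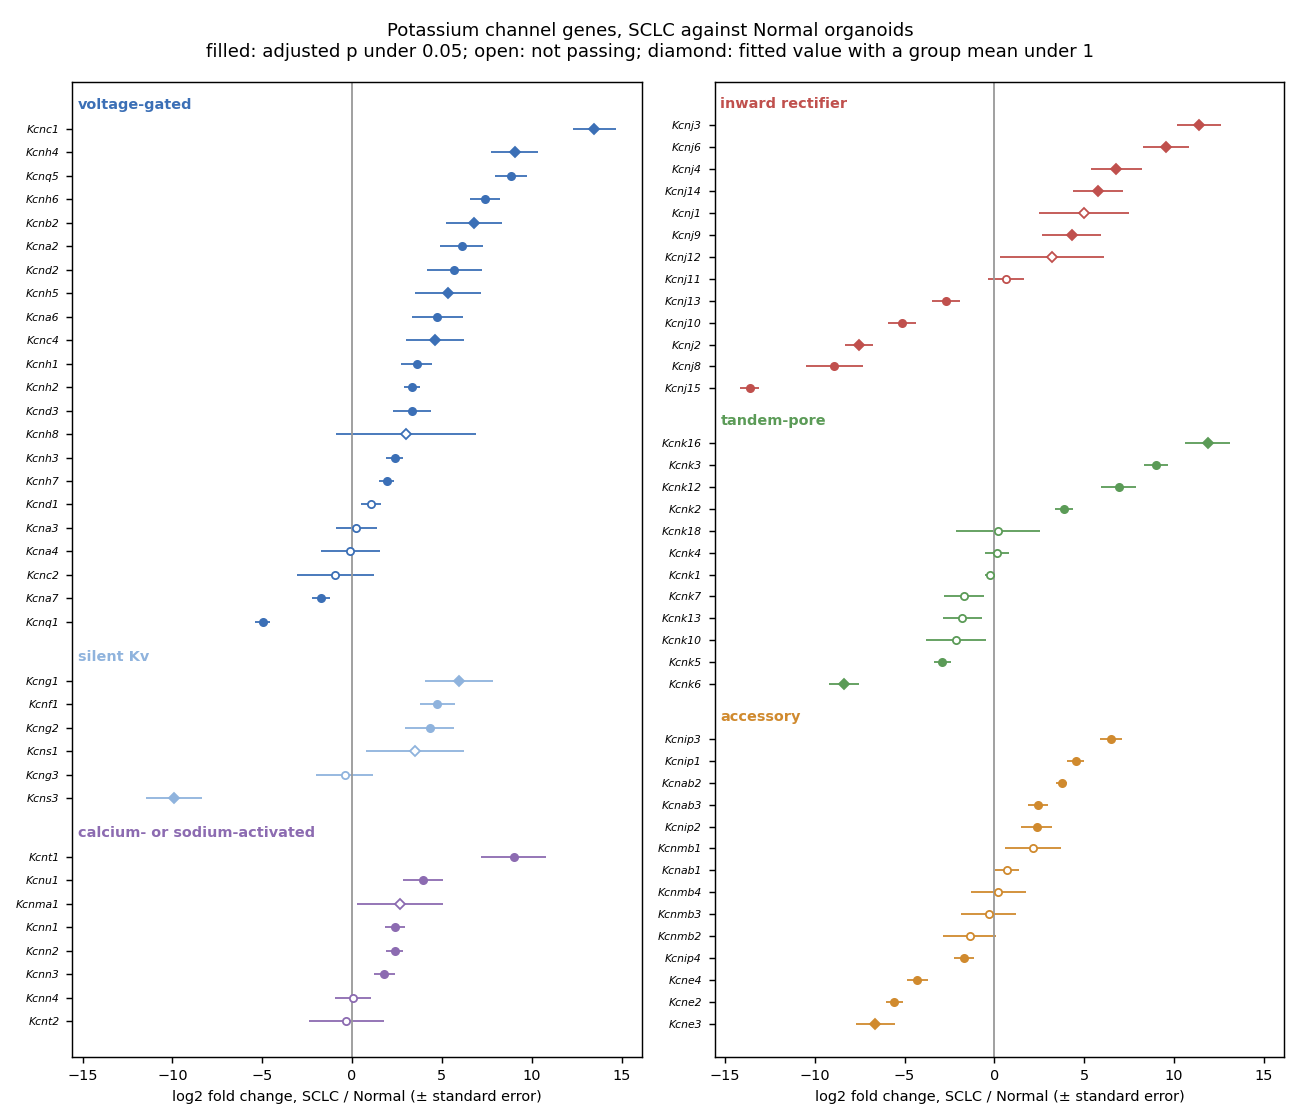
Log2 fold change of SCLC over Normal with the authors' standard error (horizontal axis) for 75 channel genes with an adjusted p, by class. Filled symbols passed at 0.05, and diamonds are fitted values of genes with a group mean under 1, whose size is not a bound. Voltage-gated genes lie mostly to the right of 0, and inward rectifiers lie on both sides.

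Among tandem-pore channels, which carry background potassium current, 12 were tested: 4 rose, 2 fell and 6 did not pass. Kcnk3, an acid-sensitive TASK channel also known from chemosensing cells, rose from 9.65 to 4908 (8.99 ± 0.68, adjusted p = 1.28e-38) per the authors' deposited table. Kcnk9, its closest relative, had 2.06 in SCLC and no adjusted p per the authors' deposited table. Kcnk16, an alkaline-activated channel of pancreatic islets, went from 0.411 to 1537, at least 1537-fold higher (adjusted p = 2.08e-19), per the authors' deposited table. Kcnk12 rose from 2.99 to 360.0 (6.91 ± 0.96) per the authors' deposited table. Kcnk2, a mechanosensitive TREK channel, rose from 167 to 2426 (3.86 ± 0.49, adjusted p = 4.75e-14) per the authors' deposited table. Kcnk6 went from 189.7 to 0.572, at least 189.7-fold lower (adjusted p = 6.59e-22), per the authors' deposited table. Kcnk5, an alkaline-sensitive channel of transporting epithelia, fell from 1405 to 187 (-2.91 ± 0.48, adjusted p = 6.18e-09) per the authors' deposited table. Kcnk1, a weakly rectifying background channel, had 2643 and 2233 and did not pass (-0.24 ± 0.27, 95% interval -0.77 to 0.29) per the authors' deposited table.

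Calcium- or sodium-activated channels did not fall in any case that passed: of 8 tested, 5 rose and 3 did not pass. Kcnt1, a sodium-activated channel of neurons, rose from 1.50 to 760.5 with a wide error (8.99 ± 1.83, adjusted p = 3.96e-06) per the authors' deposited table. The small-conductance genes, which produce the after-hyperpolarization, rose as well: Kcnn1 from 58.6 to 308 (2.39 ± 0.56), Kcnn2 from 29.1 to 149.7 (2.36 ± 0.45) and Kcnn3 from 206 to 714 (1.79 ± 0.58) per the authors' deposited table. Kcnu1, a channel described in sperm, rose from 2.20 to 34.1 (3.95 ± 1.12) per the authors' deposited table. Kcnn4, the intermediate-conductance channel of epithelia and blood cells, had 9.08 and 9.38 and did not pass (0.05 ± 1.02, 95% interval -1.96 to 2.05) per the authors' deposited table. Kcnma1, the large-conductance channel, was near the floor with 0.786 and 4.93 and did not pass (adjusted p = 0.364) per the authors' deposited table.

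Of 14 accessory genes tested, 5 rose and 4 fell, and the 5 that rose were Kcnip and Kcnab genes. Kcnip3, a calcium-binding partner of Kcnd channels, rose from 7.43 to 671 (6.50 ± 0.61, adjusted p = 8.27e-25), and Kcnip1 from 16.4 to 376 (4.52 ± 0.48), per the authors' deposited table. Kcnd2 and Kcnd3, pores of these complexes, reached 78.5 and 52.97 in SCLC and rose by 5.70 ± 1.54 and 3.34 ± 1.04 per the authors' deposited table. Kcnip4 fell from 52.7 to 16.6 (-1.67 ± 0.56) per the authors' deposited table. Kcnab2, a beta subunit of Kv channels, rose from 106 to 1420.1 (3.74 ± 0.32, adjusted p = 5.57e-31), and Kcnab3 from 90.1 to 485 (2.43 ± 0.55), per the authors' deposited table. All 3 Kcne genes tested fell. Kcne2 went from 1024 to 21.7 (-5.56 ± 0.50, adjusted p = 8.88e-28), and Kcne4 from 142 to 7.25 (-4.29 ± 0.57), per the authors' deposited table. Kcne3, which keeps Kcnq1 channels open in epithelia, went from 45.8 to 0.464, at least 45.8-fold lower (adjusted p = 1.1e-08), per the authors' deposited table. None of the 4 Kcnmb genes passed per the authors' deposited table, with group means of 1.45 to 9.68.

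Levels of different genes were compared per kb of annotated exon, a scale on which the summed channel transcripts were 9403 normalized counts per kb in Normal and 7810 in SCLC. No error can be attached to these levels. Normal was led by Kcnj15 (3237 per kb, 34.4% of the sum), and Kcnk1 held 12.6% and Kcne2 6.16%. SCLC was led by Kcnk3 (1234 per kb, 15.8%), Kcnk1 (12.8%) and Kcnk16 (8.28%), and Kcnc1 held 6.40%. Inward rectifiers made up 37.8% of the per-kb sum in Normal and 3.89% in SCLC, and tandem-pore channels 18.1% and 46.3%. The voltage-gated share was 35.6% in Normal and 37.0% in SCLC. These near-equal shares do not mean unchanged genes, since 18 of the 26 voltage-gated genes tested were higher in SCLC and 3 lower.

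**Figure D4:**
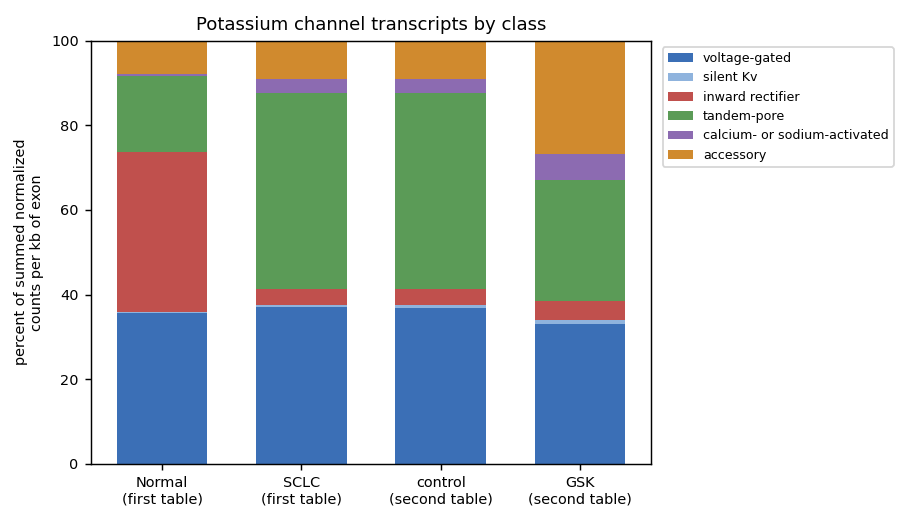
Share of each class (vertical axis, percent) in the summed normalized counts per kb of exon of all channel genes, by group and table. The inward rectifier share was 37.8% in Normal and 3.89% in SCLC, and the accessory share was 9.10% in control and 26.8% in GSK.

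Other genes of potassium handling, a list of 32 not matched by the symbol rule, were divided in direction. Of 28 tested, 11 rose, 12 fell and 5 did not pass per the authors' deposited table. Cation channels of the pacemaker type, which admit potassium and sodium on hyperpolarization, included Hcn4, which rose from 1.49 to 2786 (10.87 ± 1.06), Hcn3 (6.46 ± 0.58) and Hcn2 (2.33 ± 0.42), all higher per the authors' deposited table. Dpp6, an auxiliary subunit of Kcnd channels, was at least 505-fold higher, from 0.411 to 505, per the authors' deposited table. Atp1b1, a beta subunit of the sodium pump, fell from 53918 to 3661 (-3.88 ± 0.20) per the authors' deposited table. Slc12a2, the cotransporter that loads epithelial cells with chloride and potassium, fell from 21585 to 4102 (-2.40 ± 0.40) per the authors' deposited table. Lrrc26, an epithelial partner of Kcnma1, fell from 993 to 48.9 (-4.35 ± 0.65) per the authors' deposited table.

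Comparing GSK with control asked how the libraries labelled GSK differed from the control libraries in their channels. Of the 93 channel genes, 86 had an adjusted p per the authors' deposited table, and 40 passed, 25 higher and 15 lower with GSK. Over all 28376 genes tested, 37.1% passed, 21.6% higher and 15.5% lower. The median log2 fold change of the 86 was 0.34, against 0.24 over all genes tested. This table is sensitive to its scaling: equal group sums would add 0.51 to every log2 fold change, and centring on genes with a mean of at least 100 would add 0.25. With equal sums the channel genes split into 31 higher and 10 lower, and all genes into 30.8% higher and 6.94% lower. Testing against a log2 change of 1 in either direction left 13 higher and 5 lower, 18 in all (among them Kcna3, Kcna7, Kcnc1, Kcnd2, Kcne3, Kcnh3, Kcnip2, Kcnj15, Kcnj2, Kcnj8, Kcnk12, Kcnk13, Kcnk6, Kcnmb1, Kcnmb2, Kcnn4 and Kcns3), beside 11.1% and 1.98% of all genes, 13.1% in all. Counting both directions, 37.7% of all genes passed with equal sums, 36.4% when centred, 28.2% with no filter on low means and 49.9% among genes with a mean of at least 10. Kcnh7 and Kcnq1 lost their calls when low means were kept in the adjustment, and 5 genes, among them Kcnh7, Kcnj3 and Kcnk1, lost theirs with equal sums.

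Markers of other cells moved with GSK as well. Markers listed for epithelial cells rose too: 5 of 5 alveolar type II markers tested (sums of 506 and 97847) and 3 of 4 alveolar type I (722 and 1457). So did 3 of 4 club (216 and 7395) and 4 of 4 ciliated markers (188 and 1507). Lyz2 alone made up 94202 of the alveolar type II sum in GSK, from 2.64 in control, so this sum mostly follows Lyz2. Sftpb, Sftpa1 and Lamp3 had means of 683, 604 and 94.2 in GSK. Lyz2 rose beside the immune markers given next, and which cells carried it was not tested. Sftpc went from 232 to 1858, and Slc34a2, which had no adjusted p, is counted in both sums. All 7 immune markers rose, with summed means of 81.8 in control and 23825 in GSK. Ptprc, Adgre1, Itgam and Cd3e had means under 1 in control, and Ptprc had 12562 in GSK. All 5 endothelial markers rose (sums of 43.3 and 13865, with Cdh5, Tie1 and Emcn under 1 in control), as did all 6 fibroblast markers (25.9 and 13947, with Lum under 1 in control) and all 7 mural and smooth muscle markers (465 and 4998, none under 1 in control). Of 8 neuroendocrine markers 5 fell and Calca rose, with sums of 157931 and 67902. No immune, vascular, fibroblast or mural marker checked was under 1 in the GSK libraries, whose label gives SCLC as their tissue and cell type. An effect of GSK on the channel genes and a difference in the cells present cannot be told apart in this comparison. The part of these cells in the channel genes' rises and falls below was not tested.

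Several background and inward rectifier channels rose with GSK from low means. Kcnk6 went from 0.605 to 316, at least 316-fold higher (adjusted p = 5.69e-20), per the authors' deposited table. Kcnj2 went from 0.894 to 199, at least 199-fold higher (adjusted p = 5.91e-15), per the authors' deposited table. These levels lay beside 189.7 and 158 in Normal of the first table. Kcns3 was at least 37.6-fold higher, from 0.0885 to 37.6 (adjusted p = 2.42e-07), per the authors' deposited table. Kcnj8 rose from 1.27 to 74.8 (5.88 ± 1.15, adjusted p = 2.99e-06), and its partner Abcc9 from 5.22 to 103 (4.30 ± 0.67), per the authors' deposited table, beside the rise of all 7 mural markers. The mural marker sum was 1114 in Normal and 4998 in GSK, where Des alone held 2211. Kcnj8 had 561 in Normal and 74.8 in GSK. These Normal and GSK means come from separately scaled comparisons, and a link between Kcnj8 and mural cells was not tested. Kcnj15 rose from 1.81 to 32.03 (4.15 ± 0.81, adjusted p = 3.02e-06) per the authors' deposited table, a level far under the 20432 of Normal. Kcnj10 rose from 2.59 to 24.3 (3.23 ± 1.03) and Kcnj14 from 24.3 to 59.6 (1.29 ± 0.44) per the authors' deposited table.

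Kcnn4, Kcna3 and Kcnk13 were also higher with GSK. Kcnn4 went from 9.97 to 401 (5.33 ± 0.65, adjusted p = 6.04e-15) per the authors' deposited table. Kcna3, the channel of activated lymphocytes, went from 13.2 to 175 (3.73 ± 0.81, adjusted p = 3.4e-05) per the authors' deposited table. Kcnk13, known from microglia and macrophages, went from 2.95 to 66.1 (4.49 ± 0.67, adjusted p = 3.43e-10) per the authors' deposited table. These 3 genes had means between 2.74 and 12.4 in SCLC and between 9.08 and 10.5 in Normal, and none of the 3 passed in SCLC against Normal. Kcnk7 rose from 5.66 to 40.4 (2.83 ± 0.92) per the authors' deposited table.

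All 7 accessory genes that passed with GSK rose, of 15 tested. Kcne3 was at least 22.2-fold higher, from 0.514 to 22.2 (adjusted p = 8.33e-05), and Kcne4 rose from 7.90 to 39.5 (2.32 ± 0.73), per the authors' deposited table. Their partner Kcnq1 rose from 31.8 to 71.9 (1.18 ± 0.50, adjusted p = 0.049) per the authors' deposited table. Kcnmb1, the beta subunit of large-conductance channels in smooth muscle, rose from 7.09 to 82.3 (3.54 ± 0.47, adjusted p = 1.5e-12), and Kcnmb2 from 4.06 to 53.4 (3.72 ± 0.76), per the authors' deposited table. Their pore gene Kcnma1 had 5.29 and 1.28 and did not pass (-2.04 ± 2.02, 95% interval -6.01 to 1.92) per the authors' deposited table. Kcnip2, a partner of Kcnd channels in heart and brain, rose from 32.6 to 291 (3.16 ± 0.30, adjusted p = 4.02e-24) per the authors' deposited table. Kcnip3 rose from 726 to 2334 (1.68 ± 0.36, adjusted p = 1.99e-05) and was then the most abundant channel transcript per kb in GSK (658 per kb, 11.6% of the sum). The accessory share of the per-kb sum was 9.10% in control and 26.8% in GSK.

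Further rises were seen in Kv genes. Kcnh3, a neuronal channel of the ELK type, had 112 in control and 1028 in GSK (3.20 ± 0.28, adjusted p = 1.79e-28) per the authors' deposited table. In the first table its means were 20.02 in Normal and 104 in SCLC. Kcnc2 and Kcnv1 rose from low means, 1.70 to 18.6 (3.45 ± 1.20) and 2.42 to 23.4 (3.28 ± 0.90), per the authors' deposited table. Kcnu1 rose from 36.6 to 113 (1.63 ± 0.46) per the authors' deposited table.

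**Figure D5:**
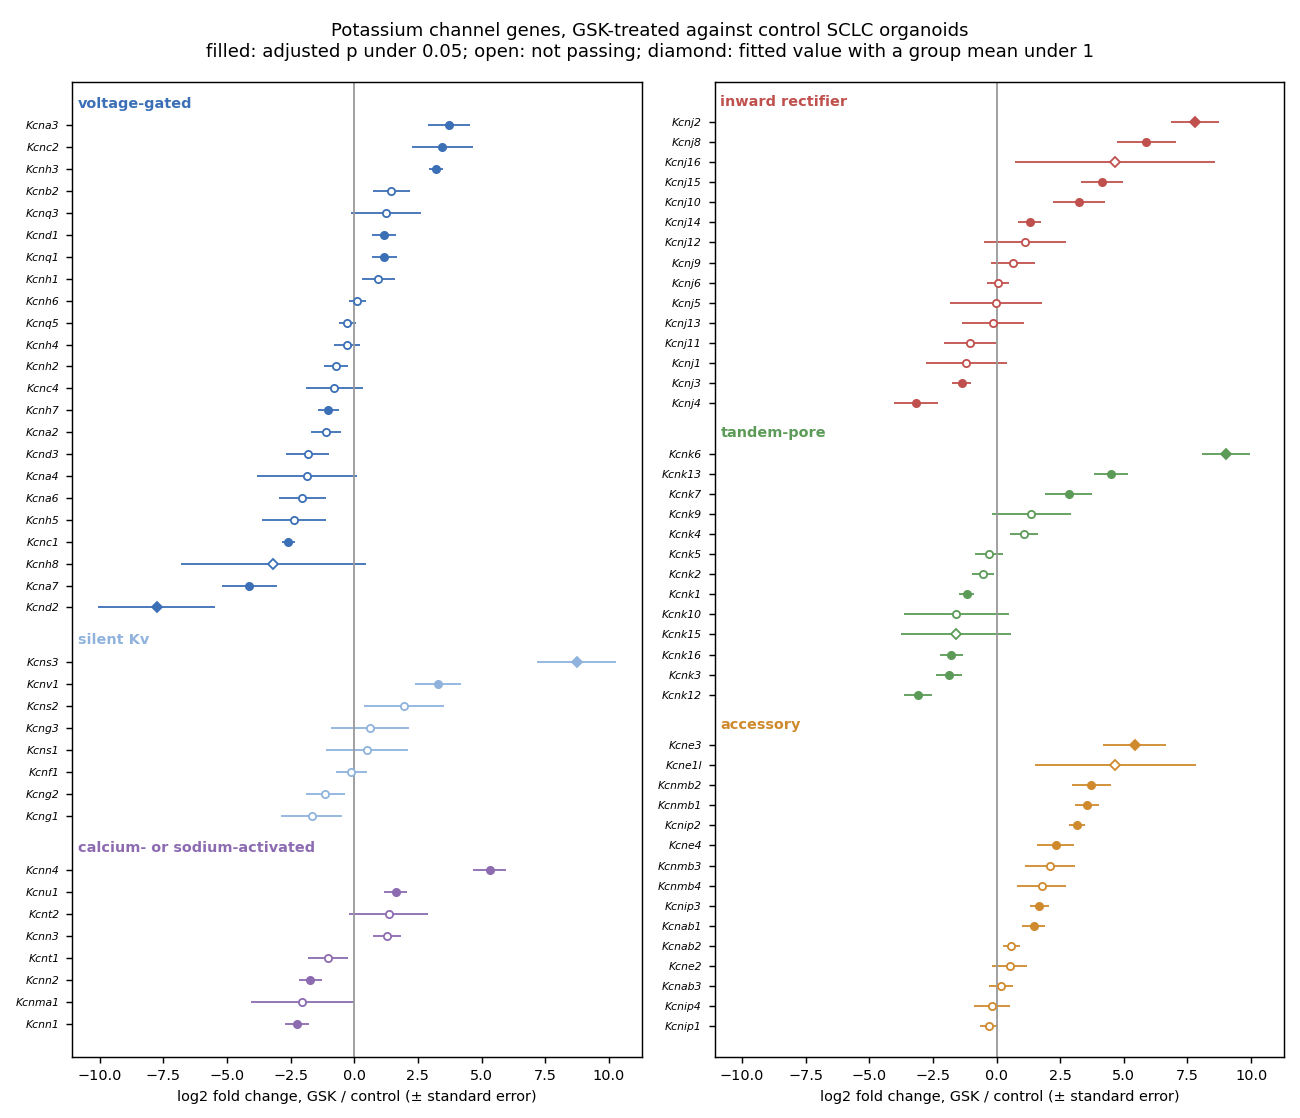
Log2 fold change of GSK over control with the authors' standard error (horizontal axis) for 82 channel genes with an adjusted p, by class. Filled symbols passed at 0.05, and diamonds are fitted values of genes with a group mean under 1, whose size is not a bound. Accessory genes that passed lie to the right of 0, and voltage-gated genes that passed lie on both sides.

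The 15 genes that fell with GSK were 7 voltage-gated, 2 inward rectifier, 4 tandem-pore and 2 calcium- or sodium-activated genes. Kcnc1 fell from 5079.8 to 843 (-2.59 ± 0.25, adjusted p = 8.25e-23) per the authors' deposited table. Kcnk3 fell from 5295 to 1441 (-1.88 ± 0.50, adjusted p = 0.000929) and Kcnk16 from 1676 to 488 (-1.78 ± 0.45) per the authors' deposited table. Kcnk12 fell from 389.7 to 45.8 (-3.09 ± 0.54, adjusted p = 1.32e-07) per the authors' deposited table. Kcnj4 fell from 48.7 to 5.38 (-3.18 ± 0.87), Kcnn1 from 329.7 to 68.7 (-2.26 ± 0.47) and Kcnn2 from 162 to 48.9 (-1.72 ± 0.46) per the authors' deposited table. Kcnn3, the third small-conductance gene, had higher means with GSK, 765 and 1866, and did not pass (1.29 ± 0.55, adjusted p = 0.0522) per the authors' deposited table. It was called higher with equal sums, when centred and among means of at least 10. Kcna7 fell from 35.7 to 2.05 (-4.12 ± 1.08), and Kcnd2 was at least 83.1-fold lower, from 83.1 to 0.380 (adjusted p = 0.00298), per the authors' deposited table. The fitted log2 fold change of Kcnd2 was -7.77 ± 2.29, and its interval of -12.27 to -3.28 includes falls smaller than 83.1-fold.

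Further falls had calls that depended on the scaling. Kcnj3 went from 1195 to 461 (-1.37 ± 0.37, adjusted p = 0.00116) and Kcnk1 from 2406 to 1068 (-1.17 ± 0.29, adjusted p = 0.00036) per the authors' deposited table. Both lost their calls with equal group sums. Several other channels did not pass: Kcnh2 had 2290.0 and 1392 (95% interval -1.62 to 0.18), Kcnq5 1115 and 925 (95% interval -0.93 to 0.39), Kcnj6 328 and 344 (95% interval -0.77 to 0.90) and Kcnh6 541 and 584 (95% interval -0.55 to 0.76) in log2 units per the authors' deposited table. Kcnk2, with 2603 and 1811 (95% interval -1.37 to 0.32), Kcnh4, with 455 and 368 (-1.31 to 0.70), and Kcnt1, with 809.5 and 396 (-2.57 to 0.51), did not pass per the authors' deposited table. Nor did the silent genes Kcnf1 (-0.12 ± 0.61), Kcng1 (-1.68 ± 1.20) and Kcng2 (-1.13 ± 0.77) per the authors' deposited table. The accessory genes Kcne2 (0.51 ± 0.70), Kcnip1 (-0.30 ± 0.36), Kcnip4 (-0.18 ± 0.71), Kcnab2 (0.58 ± 0.33) and Kcnab3 (0.17 ± 0.49) did not pass per the authors' deposited table, and Kcnab2 was called higher with equal sums and when centred. Kcnk5 (-0.30 ± 0.55) and Kcnj11 (-1.04 ± 1.03) did not pass either per the authors' deposited table.

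The summed channel transcripts were 8418 normalized counts per kb in control and 5656 in GSK. After Kcnip3, the leading genes per kb in GSK were Kcnk1 (8.45% of the sum), Kcnab2 (7.28%), Kcnk2 (6.48%), Kcnk3 (6.41%) and Kcnh2 (5.08%). Tandem-pore channels made up 46.4% of the sum in control and 28.6% in GSK. Of 28 other potassium handling genes tested with GSK, 5 rose and 8 fell per the authors' deposited table. Dpp6 fell from 542 to 162 (-1.75 ± 0.33) per the authors' deposited table.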

How the data were processed

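RNA from 9 mouse organoid libraries was sequenced, 3 in each of 3 groups, as paired reads after stranded mRNA library preparation, per the labels. STAR 2.7.9a and GRCm39 are named in the submitters' processing notes. The sources used here do not give the counting tool, the testing tool or the annotation. The columns carry the names DESeq2 uses for its results, per the file headers. The authors' signal column holds the mean normalized count over 6 libraries, and their log2 columns the fold change and its standard error. The authors' score is the log2 fold change over its error, within 8.9e-08 when recomputed. The authors' p-value columns hold unadjusted and Benjamini-Hochberg adjusted values over 24719 and 28376 genes, which matched a recomputation within 0.00355 on the log10 scale. Depth per library is not known, and no count model could be run.

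Means of each group were solved from the overall mean and the fold change, taking groups as equal in size (Python 3.11.15, pandas 2.3.3, scipy 1.17.1). Intervals are 95% Wald intervals from the authors' standard errors. Exon lengths are unions from GENCODE M21 (GRCm38), matched by identifier for all 93 genes. Named genes were up to 4 rises and 4 falls per class with a higher mean of at least 10, ranked by the bounded fold change, plus 14 genes listed whatever their values. Many genes named in one comparison are also given in the other. Kcnh6, Kcnh7, Kcnh8, Kcnq3, Kcnj5, Kcnj9, Kcnj13, Kcnk9, Kcnd2, Kcnd3, Kcnj14, Kcne4, Kcnn3 and the partner genes shown with members were added after their values were seen. The members, lists, motifs and alternatives were chosen with earlier results of these data known. The functions were tested on simulated data. A few genes of these lists are counted in the totals but not reported or plotted by name here.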

Additional observations from a re-analysis of the deposited data

How the results depend on the processing

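Results were recomputed against a log2 change of 1 in either direction, with no filter on low means, with means of at least 10 only, with equal group sums and with fold changes centred on the median. In SCLC against Normal the 55 calls became 44, 55, 53, 55 and 55 in that order. The same alternatives gave 18, 38, 41, 41 and 41 calls in GSK against control in place of 40. With GSK, testing against 1 left 6 voltage-gated, 1 silent, 3 inward rectifier, 3 tandem-pore, 1 calcium- or sodium-activated and 4 accessory genes, and 2 other potassium handling genes in place of 13. The median log2 fold change of the channel genes in SCLC against Normal moved from 2.39 to 2.30 with bounds, 2.48 with equal sums and 2.21 when centred. With GSK it moved from 0.34 to 0.84 with equal sums and 0.58 when centred. Changes of sign were seen for Kcnn4 in SCLC against Normal, to -0.13 when centred, and for Kcnk5 with GSK, to 0.21 with equal sums, and neither passed. A floor of 3 normalized counts per library lowered each bound for the named genes by up to 3 times. Equal sums added calls for Kcnab2, Kcnb2, Kcnk4, Kcnmb3, Kcnmb4 and Kcnn3 with GSK.

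No paired analysis was possible because the tables hold no values for single libraries, and for the same reason leaving out each library was not run. The size of the errors limits low genes: means under 1 allow bounds only.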

Other observations

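Other promoter letters were counted over the 68 channel genes with a RefSeq window. CACGTG, the E-box letters bound by MYC among other factors, was present in 1 of the 27 genes that rose in SCLC against Normal (Kcnh4), in 3 of the 12 that fell (Kcne4, Kcnj2 and Kcnk5) and in 8.09% of all genes with a window. TGANTCA, the letters of the AP-1 element, was present in 2 of the 27 (Kcnip3 and Kcnk2), in 2 of the 12 (Kcne3 and Kcnip4) and in 8.97% of all genes with a window. All motifs were searched on both strands, and these counts carry no test.

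Exons of some channel genes overlap those of other annotated genes, which can share reads where strand is not used in counting. In GENCODE M21, 39.6% of the exon bases of Kcna6 and 31.1% of those of Kcnj3 overlap non-coding genes on the other strand, and 13.1% of those of Kcnk4 overlap Catsperz on the same strand. The gene that overlaps Kcna6 had means of 0.071 and 1.35 over the libraries of the first and of the second authors' deposited table.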
